A study of Rhodotorula toruloides with 36 samples.

Results

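A set of 53 transcripts of *R. toruloides*, an oleaginous red yeast, was higher in the α-bisabolene strain GB2 than in wild type (WT) at 48 h of growth but not at 18 h. Members were chosen by the read counts of the GB2 and WT libraries at both times. CPM is the count of a transcript per 1000000 counts of its library, and the difference of GB2 from WT was the log2 ratio of mean CPM plus 1, less the median of that ratio over transcripts at 10 CPM or more in WT. A transcript was a member when this difference was at least 1 at 48 h, lay within 0.5 of 0 at 18 h, and its mean in WT or GB2 at 48 h was at least 10 CPM. Of 8490 numbered transcripts 7405 reached that level, and 53 of them (0.716%) met the rule. Since these libraries made the choice, the differences of GB2 from WT are given as a description without a test. Transcripts are named by number, because the counts carry no gene names.

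WT was strain IFO0880. BIS18, BIS14 and BIS3 were single transformants of it that held 1, 7 and 10 copies of P_GAPDH-BIS, a cassette that expresses the α-bisabolene synthase BIS from the promoter of a glycolytic gene. GB2 was made from BIS3, so it held those 10 copies, and 6 copies of P_ANT-BIS were added, in which the promoter of the adenine nucleotide translocase gene drives BIS. All were grown in SD medium, for which the sample labels and the study's methods give different glucose concentrations, and were sampled at 18 h, in exponential growth, and at 48 h, in stationary phase. Transformation of this yeast inserts cassettes at loci that are not chosen, the insertion sites were not analysed here, and each strain is 1 clone, so a strain's copy number, insertion sites and other changes cannot be told apart.

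α-Bisabolene is a sesquiterpene that BIS forms in a single step from farnesyl diphosphate, a product of the mevalonate pathway that is also the precursor of ergosterol. *R. toruloides* stores lipid and makes carotenoids, and yeast cells generally change much of their transcription on entering stationary phase. The study set strains of rising BIS dosage against WT at both times. The 17 genes of mevalonate, sterol and fatty acid synthesis that the study lists were left out of the set, and 0 of them met the thresholds. They were linked to transcript numbers by the study's protein numbers plus a fixed offset, on which this count rests.

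There were 36 libraries, 18 at each time, 6 from WT and 3 from every engineered strain. Library totals were 1134992 to 2029181 counts at 18 h and 657951 to 3102440 at 48 h. The lowest total was that of WT replicate 2 at 48 h, which lay below the other 5 WT libraries for 53.9% of the 7405 transcripts and above them for 34.1%. The rule left it out, and every WT value at 48 h below is from the other 5 libraries unless stated. Counts of single members ranged from 0 to 2434 at 18 h and from 1 to 2284 at 48 h, and 2 members had a count of 0 in at least 1 library at 18 h, which allows up to 3 counts. The labels do not say whether replicates came from separate cultures, so p-values measure only the spread between these libraries.

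At 48 h the members were higher in GB2 than in WT by 1.01 to 2.45 on the centred log2 scale, with a median of 1.17. Most lay near the limit of the rule. The difference was from 1 to under 1.1 for 21 members, from 1.1 to under 1.5 for another 21, from 1.5 to under 2 for 6 and at least 2 for 5. For 50 of the 53 members every GB2 library lay above all 5 WT libraries, which follows in part from the choice of members. The share over all 7405 transcripts was 11.4%. The exceptions were transcripts 13104, 12060 and 12986. For 13104, described after its values were seen, GB2 had 278, 77.8 and 89.7 CPM against 58.1 to 102 CPM in WT. Its GB2 replicates 2 and 3 thus lay within the WT range. The median ratio taken off was -0.37 at 18 h and -0.25 at 48 h, so the differences before centring were smaller by these amounts. Of 215 transcripts (2.9% of the 7405) with a difference of at least 1 at 48 h, 111 were also higher by at least 0.5 at 18 h and 51 were lower by at least 0.5.

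Transcripts 11585 and 9434 had the highest differences. Transcript 9434 (scaffold 10, bases 21182 to 22697, + strand) had 160, 182 and 172 CPM in GB2 at 48 h, and 28.9 to 45.7 CPM (median 36.6) in WT. It had 60.6, 63.4 and 64.2 CPM in BIS18, 77.3, 74.4 and 80.5 CPM in BIS14, and 55.4, 58.7 and 57.6 CPM in BIS3. No library of GB2 overlapped with those of any other strain, and the 3 other engineered strains lay between WT and GB2. At 18 h the same transcript was at 4.59 to 5.77 CPM in GB2 and 4.44 to 11.1 CPM (median 7.98) in WT, and the ranges overlapped.

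Transcript 11585 (scaffold 16, bases 293575 to 294483, + strand) had 70.7, 85.9 and 115 CPM in GB2 at 48 h against 14.1 to 25.4 CPM (median 17.1) in WT. BIS14 held 65.1, 118 and 89.7 CPM and BIS3 97.3, 82.7 and 91.1 CPM, so these strains overlapped with GB2. BIS18, with 46.1, 39.5 and 45.5 CPM, lay between WT and the rest. Its neighbour 11584 (bases 290716 to 294009, + strand) likewise had WT lowest and BIS18 next, with a mean of 87.8 ± 11.3 CPM in WT (SD, n = 5) and, from 3 libraries a strain, means of 174 ± 8.18 (BIS18), 382 ± 120 (BIS14), 348 ± 40.8 (BIS3) and 364 ± 68.8 CPM (GB2). The spans of these 2 transcripts share 435 bases on the same strand, so their reads may not be told apart and they are best counted as 1 locus.

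**Figure D1:**
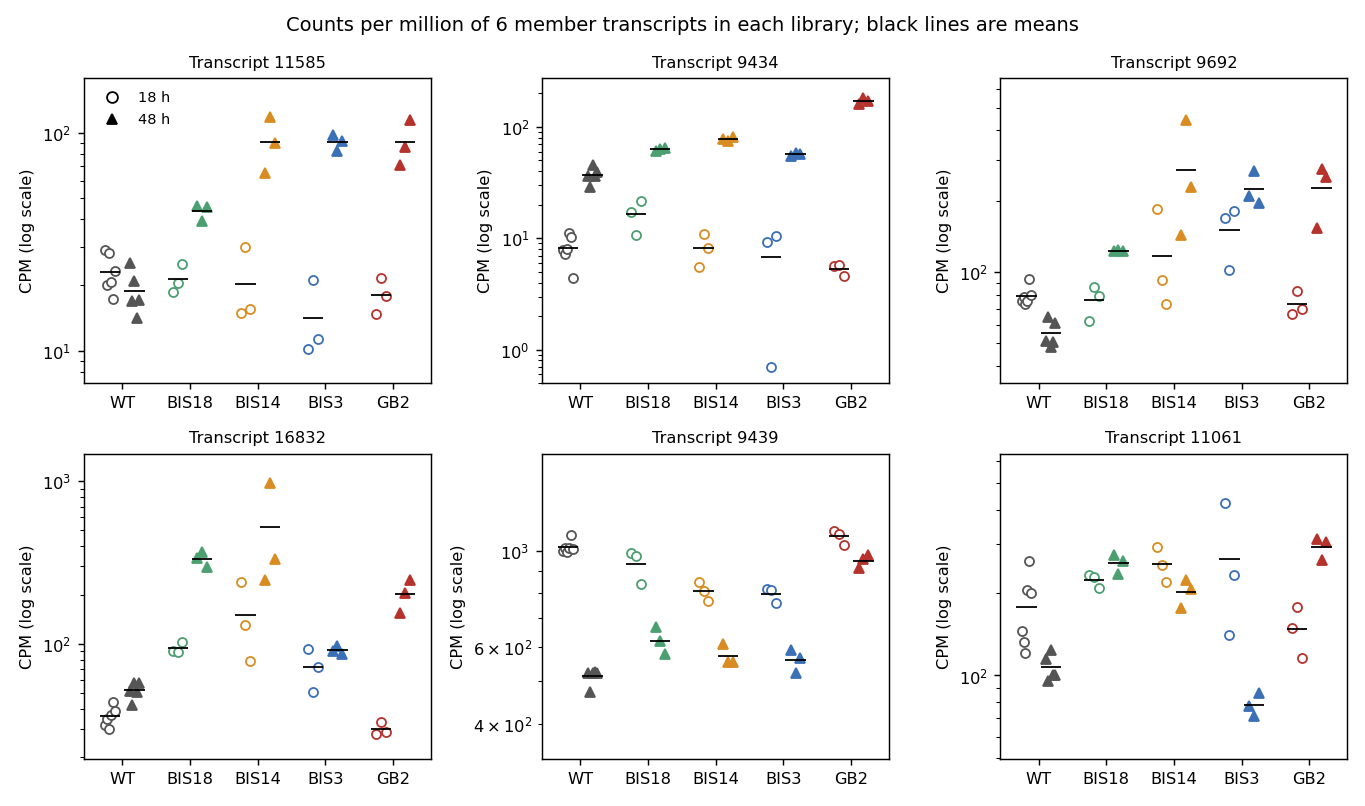
CPM (log axis) of 6 member transcripts in each library, by strain, with open circles for 18 h, filled triangles for 48 h and black lines for means. WT replicate 2 at 48 h is left out. Transcript 9434 is highest in the 3 GB2 libraries at 48 h, whereas 11585 and 9692 overlap between GB2, BIS14 and BIS3.

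The members also tended to lie above WT in the other engineered strains. Against WT at 48 h the median member was also higher in BIS18 by 0.55, in BIS14 by 0.85 and in BIS3 by 0.57, and the medians over all 7405 transcripts were under 0.01 in each strain. A difference of at least 1 was reached by 9 members in BIS18 (0.932% of all transcripts), 22 in BIS14 (2.71%) and 9 in BIS3 (0.729%). In 46 of the 53 members the mean lay above WT in all 3 of these strains, as for 28.8% of all transcripts. For 19 members (35.8%) every library of BIS18, BIS14 and BIS3 lay above every WT library, against 2.78% of all transcripts. These comparisons share the WT libraries that chose the members, and a low WT value raises each of them, so no test is given. Without BIS14 replicate 2 the count in BIS14 was 13 instead of 22, and with WT replicate 2 kept it was 30, both settings being chosen after seeing the data for this count.

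GB2 nevertheless held the highest mean of the 5 strains at 48 h for 38 members, BIS14 for 10, BIS3 for 3 and BIS18 for 2. The rule favours GB2 here and keeps WT from being highest, and the same count over all transcripts was not made. Its median difference was 0.64 from BIS3, the strain it was made from, 0.35 from BIS14 and 0.64 from BIS18, again as descriptions, since the GB2 libraries chose the members. At least 1 was reached by 9 members against BIS3 (1.9% of all transcripts), 4 against BIS14 (0.797%) and 7 against BIS18 (0.999%). Every GB2 library lay above every library of BIS3 for 29 members (14.6% of all transcripts), of BIS14 for 19 (13.9%) and of BIS18 for 37 (14.7%). Every GB2 library lay above all libraries of these 3 strains together for 14 members (4.96%).

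At 18 h the picture was flat by construction in GB2, where the members ranged from -0.37 to 0.47 (median 0.15). In the other strains, which the rule did not bound, the medians against WT were -0.0017 in BIS18, 0.07 in BIS14 and 0.25 in BIS3. At least 1 was reached at 18 h by 1 member in BIS18 (0.324% of all transcripts), 4 in BIS14 (2.4%) and 2 in BIS3 (2.88%).

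**Figure D2:**
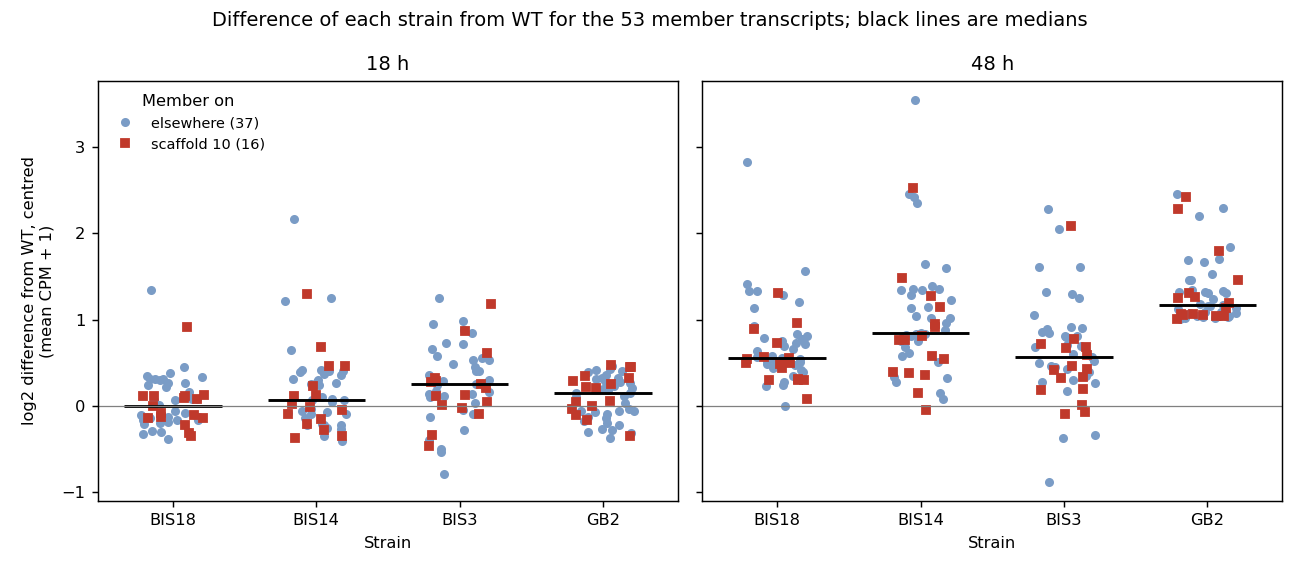
Centred log2 difference of each engineered strain from WT for the 53 members at 18 h and 48 h, with red squares for the 16 members on scaffold 10, blue circles for the other 37 and black lines for medians. The GB2 columns show the choice of members. At 48 h the medians of BIS18, BIS14 and BIS3 lie at 0.55, 0.85 and 0.57.

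Scaffold 10 held 16 of the 53 members (30.2%) but 337 of the 7405 transcripts (4.55%). The scaffold as a whole was higher in GB2: its median transcript lay above WT by 0.40 at 18 h and by 0.46 at 48 h, where the medians of the other 17 scaffolds with at least 50 transcripts at this level ranged from -0.074 to 0.060 and from -0.118 to 0.055. In BIS3, BIS14 and BIS18 its median was between -0.038 and 0.016 at both times. Against this level the 16 members were higher by a further 0.55 to 1.96 (median 0.70), and 3 of them, transcripts 9434, 9692 and 9592, by at least 1. The rule asked for at least 1 over all transcripts, so every member on scaffold 10 had to exceed its median. The lowest value of 0.55 lies near the floor that this sets. When each scaffold's own median was taken off in place of that of all transcripts, an alternative chosen after seeing the data, 44 transcripts met the rule. These included 3 of the 16 members on scaffold 10 and all 37 elsewhere. The 18 h difference was recentred too, so these 3 need not be the 3 transcripts named above. Transcript 9434, for example, stood at -0.17 at 18 h before the scaffold's 18 h median of 0.40 was taken off. The next scaffold by share of its transcripts was scaffold 17, with 5 members of 202.

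Of the 14 members with every GB2 library above all those of BIS18, BIS14 and BIS3, 10 were on scaffold 10. Over all transcripts at this level 367 were so placed and 141 of them (38.4%) were on scaffold 10, which is 41.8% of that scaffold's 337. One of the 10 was transcript 9592, named after its values were seen, with 66.3, 63 and 77.4 CPM in GB2 at 48 h. All libraries of the other 4 strains lay between 15.7 and 34.1 CPM.

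Transcript 9439 (scaffold 10, bases 30709 to 31838, + strand) was the most abundant member in GB2 at 48 h. It had 911, 959 and 976 CPM there, 474 to 526 CPM (median 523) in WT, and 522 to 666 CPM in the 9 libraries of the other strains. At 18 h its mean was 1018 ± 33.5 CPM in WT (SD, n = 6) and 1079 ± 44.0 CPM in GB2 (SD, n = 3), and 795 to 934 CPM in the other strains. Transcript 9717 (scaffold 10, bases 679829 to 682242, + strand) had the same course, with 708, 696 and 739 CPM in GB2 at 48 h, 316 to 393 CPM (median 360) in WT, and 429 to 571 CPM in the other strains. For both, the level at 48 h was under that at 18 h in all 5 strains.

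The other 2 abundant members on scaffold 10 overlapped with BIS14. Transcript 9618 (bases 453212 to 456486, + strand) had 748, 719 and 773 CPM in GB2 at 48 h and 580, 937 and 573 CPM in BIS14, against 339 to 399 CPM (median 382) in WT. Transcript 9627 (bases 480836 to 482753, - strand) had 756, 871 and 841 CPM in GB2 and 515, 954 and 580 CPM in BIS14, against 354 to 528 CPM (median 446) in WT. In each case 1 BIS14 library, replicate 2, was above GB2 and the other 2 were below it. The span of 9627 overlaps that of a transcript on the same strand.

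**Figure D3:**
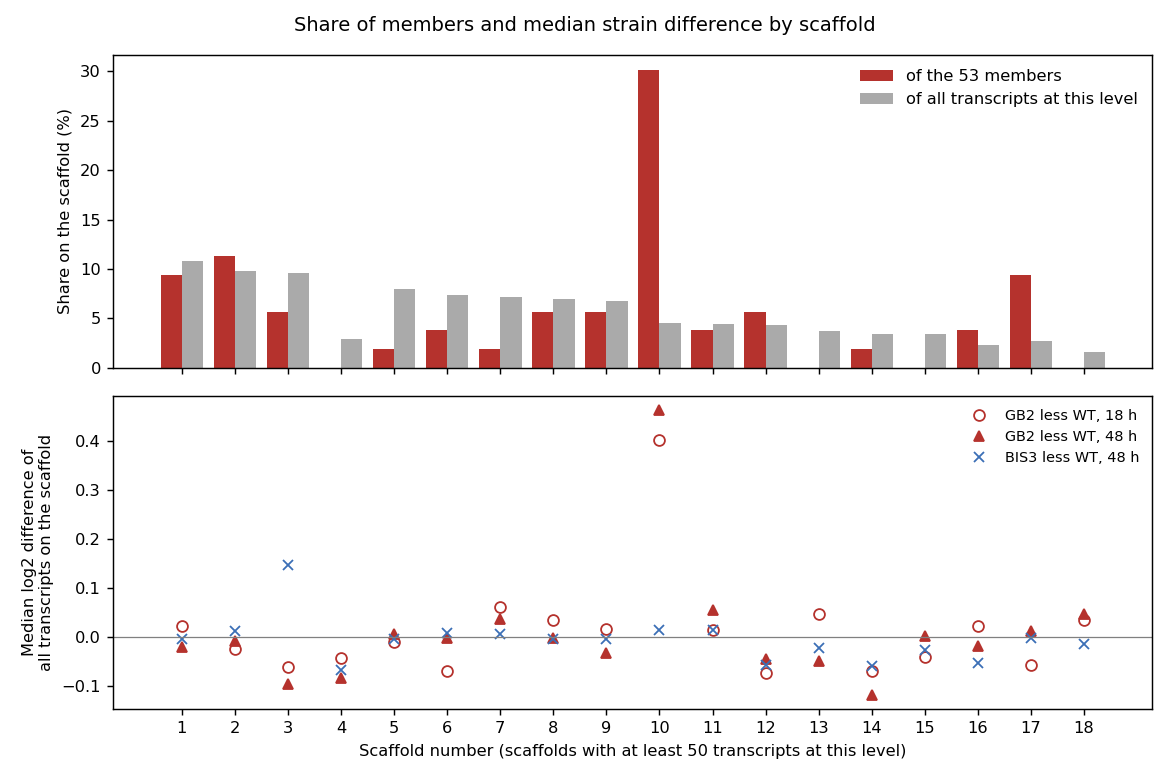
Upper panel, share of the 53 members (red) and of all 7405 transcripts at this level (grey) on each scaffold with at least 50 of them, in percent. Lower panel, median log2 difference of all transcripts of the scaffold for GB2 less WT at 18 h (open circles) and 48 h (triangles) and BIS3 less WT at 48 h (crosses), where scaffold 10 stands at 0.40, 0.46 and 0.014.

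Comparisons among BIS18, BIS14 and BIS3 used neither the WT nor the GB2 libraries in the contrast and were therefore tested, with edgeR's quasi-likelihood test and Benjamini-Hochberg adjustment over all transcripts at a threshold of 0.05. WT and GB2 libraries did enter these fits, through the normalization and the shared estimate of the spread. The p-values thus depend in part on libraries that chose the members. Counts from fits of the compared groups alone are given below. The 3 comparisons at 48 h share libraries with each other. BIS14 was higher than BIS18 for 9 of 53 members (5.48% of 7913 transcripts) and lower for 0 (4.31%). At an unadjusted p under 0.05, 28 were higher (15.8% of all transcripts) and 2 lower (12.8%), and DESeq2 called 8 higher (6.27%) and 0 lower (4.3%). The median over the members was 0.40, and 0.01 over all transcripts tested, with 43 of the 53 above 0.

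BIS3 was lower than BIS14 for 14 members (5.02% of all transcripts) and higher for 0 (2.33%), with a median of -0.30 against 0.004 over all transcripts. At an unadjusted p under 0.05, 22 were lower (13.2% of all transcripts) and 1 higher (9.58%), and DESeq2 called 13 lower (6.62%) and 0 higher (2.13%). Between BIS3 and BIS18 the members went both ways: 7 were higher in BIS3 (8.97% of all transcripts) and 7 lower (9.77%), with a median of -0.03. All 14 members called between BIS3, with 10 copies, and BIS14, with 7, were higher in the strain with fewer copies.

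These counts rested on a few libraries. BIS14 replicate 2 at 48 h was the highest of the 3 BIS14 libraries for 31 members (58.5%), against 21.7% of all transcripts, and replicate 1 was the lowest for 30 (56.6%, against 19.5%). Without replicate 2, 4 members were called between BIS14 and BIS18 and 4 between BIS3 and BIS14. Without replicate 1 these counts were 21 and 18. Leaving out BIS18 replicate 2 or 3 gave 5 for BIS14 against BIS18. Leaving out BIS3 replicate 1, 2 or 3 gave 6, 8 and 4 for BIS3 against BIS14, and leaving out BIS3 replicate 1 or 3 gave 9 for BIS3 against BIS18. With WT replicate 2 kept in the fit, 0 members were called for BIS14 against BIS18, 1 for BIS3 against BIS18 (transcript 11061) and 1 for BIS3 against BIS14 (transcript 16832).

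**Figure D4:**
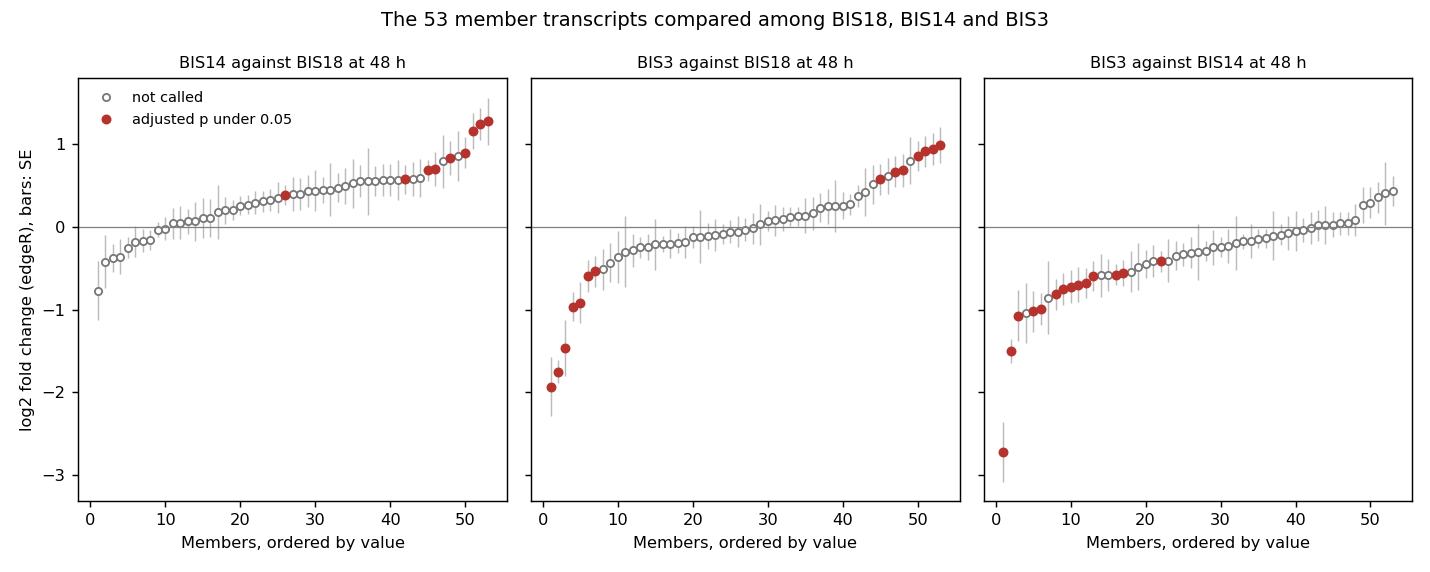
Fitted log2 fold change (points) with its standard error (bars) of the 53 members in each comparison among BIS18, BIS14 and BIS3 at 48 h, ordered by value, with filled points for an adjusted p under 0.05. In the left panel 9 points are filled and all are above 0, in the middle 7 are above and 7 below, and in the right panel 14 are filled and all are below 0.

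The locus of 11584 and 11585 was higher in both multicopy strains. For 11584 the fitted log2 fold change was 1.25 ± 0.194 (SE) in BIS14 over BIS18 (edgeR adjusted p = 0.000712) and 0.94 ± 0.193 in BIS3 over BIS18 (adjusted p = 0.00205). For 11585 it was 1.16 ± 0.218 (adjusted p = 0.0033) and 0.99 ± 0.214 (adjusted p = 0.00289). All 3 libraries of BIS14 and of BIS3 were above all of BIS18 in each case. BIS3 against BIS14 was not called for either, with -0.31 ± 0.189 and -0.17 ± 0.207. Keeping WT replicate 2 raised the adjusted p of these 4 called comparisons to between 0.0554 and 0.0942.

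Transcript 9692 (scaffold 10, bases 626019 to 627769, - strand) had 144, 443 and 230 CPM in BIS14 at 48 h against 123, 124 and 123 CPM in BIS18, a log2 fold change of 1.28 ± 0.286 (edgeR adjusted p = 0.00907, and 0.103 without BIS14 replicate 2). The adjusted p was 0.147 with WT replicate 2 kept and 0.0558 with only the groups compared. In BIS3 transcript 9692 had 211, 268 and 197 CPM, and BIS3 against BIS18 was not called (0.80 ± 0.286, adjusted p = 0.0524). In GB2 it was at 154, 275 and 255 CPM and in WT at 48.3 to 64.8 CPM (median 51.3). It differed at 18 h too: BIS3 was above BIS18 by 1.24 ± 0.266 (adjusted p = 0.00183), with 170, 102 and 182 CPM against 62.4, 86.8 and 79.5 CPM. The neighbouring member 9693 (bases 628765 to 631426, + strand) starts 995 bases away on the other strand and was called in none of the 3 comparisons at 48 h.

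Transcript 16832 (scaffold 9, bases 966133 to 967823, - strand) differed widely among the engineered strains. At 48 h it had 338, 368 and 297 CPM in BIS18, 248, 980 and 332 CPM in BIS14 and 90.6, 97.4 and 86.1 CPM in BIS3. GB2 had 156, 205 and 249 CPM and WT 42.2 to 57.7 CPM (median 51.3). BIS3 thus lay under GB2, BIS18 and BIS14 without overlap. The log2 fold change of BIS3 was -1.93 ± 0.354 against BIS18 (edgeR adjusted p = 0.000895, and 0.0559 with WT replicate 2 kept) and -2.72 ± 0.359 against BIS14 (adjusted p = 8.07e-05). At 18 h BIS14 was above BIS18 by 0.86 ± 0.278 (adjusted p = 0.048), with 241, 131 and 78.2 CPM against 90.4, 88.5 and 102 CPM, so that the libraries overlapped. This call was lost under 18 of 25 alternatives. The span of 16832 overlaps that of a transcript on the other strand, and the strand setting of the counts is not given in the sources used here.

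Transcript 11061 (scaffold 14, bases 457320 to 458239, + strand) was lower in BIS3 than in any other strain at 48 h. It had 77.7, 71.1 and 86.1 CPM there, 274, 234 and 260 CPM in BIS18, 176, 221 and 207 CPM in BIS14, 314, 263 and 306 CPM in GB2 and 95.7 to 124 CPM (median 101) in WT. BIS3 was under BIS18 by a log2 fold change of -1.75 ± 0.137 (edgeR adjusted p = 1.2e-08) and under BIS14 by -1.50 ± 0.140 (adjusted p = 5.76e-07, and 0.0795 with WT replicate 2 kept). GB2, made from BIS3, lay above its parent by a centred log2 difference of 2.06, the highest of the 53 members, given without a test.

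Transcript 11666 (scaffold 17, bases 1851 to 3306, + strand) lies near the start of its scaffold and was the only one of the 5 most abundant members in GB2 off scaffold 10. It had 423, 509 and 565 CPM in GB2 at 48 h and 151 to 175 CPM (median 166) in WT. The other engineered strains overlapped with GB2, with 447, 417 and 441 CPM in BIS18, 529, 1048 and 661 CPM in BIS14 and 487, 482 and 467 CPM in BIS3. BIS14 was above BIS18 by 0.90 ± 0.188 (edgeR adjusted p = 0.00659), and BIS3 was under BIS14 by -0.82 ± 0.188 (adjusted p = 0.011, and 0.0883 without BIS14 replicate 2). With WT replicate 2 kept these 2 adjusted p-values were 0.285 and 0.348, and with only the groups compared 0.0536 and 0.0958. The span of 11666 also overlaps that of a transcript on the same strand.

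At 18 h 50 of the members were tested among 7375 transcripts, and 8534, 15712 and 8789 had counts too low. BIS14 was higher than BIS18 for 5 (7.11% of all transcripts) and lower for 0 (4.99%). At an unadjusted p under 0.05, 9 were higher (15.6%) and 3 lower (13.4%), and DESeq2 called 6 higher (8.68%) and 0 lower (4.83%). BIS3 was higher than BIS18 for 10 (15.4% of all transcripts) and lower for 1 (13.8%), with a median of 0.24 against -0.03 over all transcripts. Of the 9 members called for BIS14 against BIS18 at 48 h 2 were also called at 18 h, and of the 14 called for BIS3 against BIS18 likewise 2. The count for BIS14 fell to 0 without BIS18 replicate 1 and to 1 without BIS18 replicate 2, and was 9 and 8 without BIS14 replicate 1 or 3. That for BIS3 was 7 without BIS18 replicate 1 and 17 without BIS14 replicate 1.

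The change from 18 h to 48 h was also described in each strain. In mean CPM 19 of the 53 were higher at 48 h in WT and 43 in GB2, which follows in part from the rule. The same counts over all transcripts were not made. The median centred change was -0.43 in WT and 0.75 in GB2, whose libraries chose the members, and it was 0.25, 0.45 and -0.01 in BIS18, BIS14 and BIS3. In the edgeR fit of both times, BIS18 had 21 members higher at 48 h (28.3% of 7899 transcripts) and 16 lower (28.5%). BIS14 had 23 higher (27%) and 14 lower (26.9%), and BIS3 had 14 higher (31.9%) and 19 lower (29.7%). In BIS18, BIS14 and BIS3, transcript 9434 rose by 1.92 ± 0.219, 3.14 ± 0.265 and 2.72 ± 0.286 on the log2 scale (adjusted p = 3.73e-09, 4.51e-12 and 4.83e-10). Transcript 9717 fell by 0.77 ± 0.158, 0.68 ± 0.159 and 1.07 ± 0.160 (adjusted p = 0.000104, 0.000472 and 5.39e-07).

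**Figure D5:**
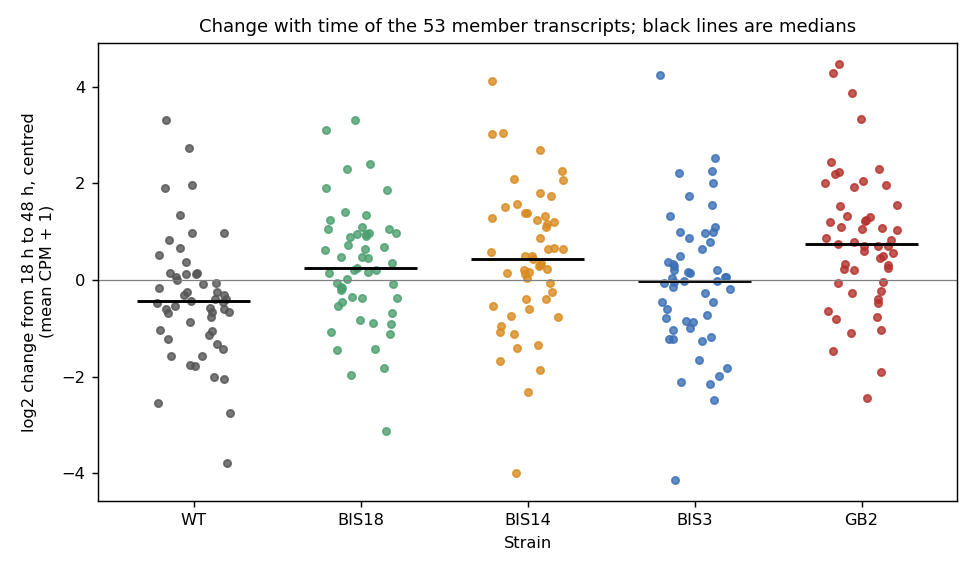
Centred log2 change in mean CPM plus 1 from 18 h to 48 h of the 53 members (points) in each strain, with black lines for medians. From left to right the medians are -0.43, 0.25, 0.45, -0.01 and 0.75, and the points spread to both sides of 0 in each strain.

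Whether the change with time differed between strains was tested as an interaction in the same fit. For BIS14 against BIS18, 1 member, 11584, was called higher (0.266% of all transcripts) and 0 lower (0.266%). At an unadjusted p under 0.05, 9 were higher (6.43%) and 0 lower (6.34%), and DESeq2 called 3 higher (0.959%) and 0 lower (1.3%). The count was 0 without any 1 of BIS18 replicates 1 and 2 and BIS14 replicate 3 at 18 h or of BIS18 replicates 1 to 3 and BIS14 replicate 2 at 48 h, 6 without BIS14 replicate 1 at 18 h, and 2 without BIS3 replicate 2 at 18 h or BIS14 replicate 3 at 48 h. For BIS3 against BIS18, 3 were higher (7.58% of all transcripts) and 7 lower (9.09%), with a median of -0.29 against 0.02 over all transcripts. These 10 calls became 5 or 6 without BIS18 replicate 2, BIS3 replicate 1 or BIS3 replicate 3 at 18 h, or BIS18 replicate 1, BIS3 replicate 1 or BIS3 replicate 3 at 48 h, and 4 with WT replicate 2 kept. Transcript 11061 showed the largest of these differences. From 18 h to 48 h it fell in BIS3 by 2.11 ± 0.252 on the log2 scale (edgeR adjusted p = 7.71e-09), whereas BIS18 gave 0.17 ± 0.231 (adjusted p = 0.551), and the difference between the changes was -2.28 ± 0.341 (adjusted p = 2.18e-05).

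Along the genome the members were mostly single. Only 2 pairs of members were next to each other, 9692 with 9693 and 11584 with 11585, and no run was longer than 2. Transcripts next to a member that were not members themselves had a median difference of GB2 from WT at 48 h of 0.45 on scaffold 10 (n = 22), close to the scaffold's own 0.46. Elsewhere the median of such neighbours was 0.13 (n = 66), above the -0.02 of all non-members off scaffold 10 (n = 7031), a difference that was not tested. Members lay on the + strand for 49.1%, against 49.9% of all transcripts at this level, and among the first or last 20 transcripts of their scaffold for 9.43%, against 8.87%. Their median length was 1691 bases, against 1899. The spans of 12 members (22.6%, against 23.9%) overlapped another transcript, on the same strand for 8.

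Values close to the limits of the rule show how narrow it was. At 48 h the lowest member was transcript 11743, with a difference of 1.01, and the transcript next outside was 10328, with 0.99. At 18 h the highest member was 9717, with 0.47, next to 14083 outside with 0.51, and the lowest member was 10250, with -0.37, next to 9443 outside with -0.50. The lowest mean at 48 h was that of 8534 with 15.6 CPM in GB2, and 14413, with 8.59 CPM, was the closest below the limit. In WT at 48 h 49 of the members reached a mean of 10 CPM and 4 entered through GB2 only. Transcript 8534 was one of these, with 11.5, 15.7 and 19.7 CPM in GB2 and 3.52 to 10.3 CPM (median 3.70) in WT.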

How the data were processed

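The deposited values are raw counts per transcript in 36 libraries. Per the paper's methods and the labels, the authors trimmed reads with BBTools, mapped them with HISAT2 to the IFO0880 genome with BIS added and counted them with featureCounts. Versions, the strand setting and the handling of reads with several matches are not given in the sources used here. The deposited counts are not normalized. Every count column was read, but WT replicate 2 at 48 h was left out of the rule and the main fits. Scaffold positions are those deposited with the counts.

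CPM, members and descriptive differences (pseudocount 1) were computed with Python 3.11.15, numpy 2.4.6 and pandas 2.3.3, and figures with matplotlib 3.10.9. Tests used edgeR 4.0.16 (R 4.3.3) with TMM, filterByExpr and the quasi-likelihood test, in one fit per time (18 libraries at 18 h, 17 at 48 h) and one of both times (35), without WT replicate 2 at 48 h. They were tested on simulated data. Standard errors of edgeR's log2 fold changes were derived as the absolute fold change over the square root of the test's F statistic. DESeq2 1.42.0 served as an alternative.

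The members and lists were chosen with earlier results of these data known. Named were the 5 members with the highest difference at 48 h, the 5 most abundant in GB2, the 2 called members with the largest change in each direction in each comparison at 48 h, neighbouring members, and those closest to each threshold. A table of gene names from another strain matched 0 identifiers. Sequences and functions of the members were not analysed here.

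Alternatives were RLE normalization, no count filter or at least 10 counts in every library, only the groups compared, all libraries in one fit, WT replicate 2 kept, a block for the replicate number, and leaving out single libraries. For the rule they were WT replicates 1 to 3 or 4 to 6, TMM, no centring, pseudocounts of 0.5 and 5, and limits of 5 and 50 CPM.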

Additional observations from a re-analysis of the deposited data

Results flagged for a closer look

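The 15 named members were checked for a WT library far from the other 5, over 30 groups of 6 libraries, and 8 were found, where chance gives about 1 in 20 groups. In 5 of the 8 the library was WT replicate 2 at 48 h, which the rule left out. It was low for transcript 9439 (44.1 CPM, next value 473.7), 16832 (6.08 CPM, next 42.2), 11666 (53.2 CPM, next 151) and 11061 (16.7 CPM, next 95.7), and high for 9693 (372 CPM, next 180). At 18 h WT replicate 5 was high for 9692 (94.1 CPM, next 80.3) and for 9439 (1084 CPM, next 1015), and WT replicate 4 was low for 11584 (72.9 CPM, next 89.9).

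The change from 18 h to 48 h differed between strains for 5 of the 15 named members by the interaction term of edgeR. Over all members BIS14 had 1 call, higher, where 0.266% of all transcripts were higher and 0.266% lower. BIS3 had 10 calls. Of these 3 were higher (5.66% of members, 7.58% of all transcripts) and 7 lower (13.2% of members, 9.09% of all transcripts). Transcripts 11584, 11585, 16832 and 11061 had been named for large called changes among these strains at 48 h. The difference at 48 h is part of the interaction, so the choice of named members raises this share. Against BIS18 it was higher in BIS14 for 11584, by 1.22 on the log2 scale (adjusted p = 0.0322), and higher in BIS3 for 11585, by 1.23 (adjusted p = 0.0334). It was lower in BIS3 for 16832, with -1.84 (adjusted p = 0.0122), for 9627, with -1.39 (adjusted p = 0.0346), and for 11061, with -2.28 (adjusted p = 2.18e-05). With WT replicate 2 at 48 h kept in the fit, the adjusted p was 0.264, 0.0678, 0.0517 and 0.0868 for the first 4. For 11061 the call held under all 42 alternatives run.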

How the results depend on the processing

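The set changed most with the WT libraries and the centring. With WT replicate 2 at 48 h kept, 81 transcripts met the rule, 45 of them among the 53, and with no median taken off 32 did, 19 shared. Members on scaffold 10 were then 16 and 6 (and 3 with each scaffold's own median taken off, chosen after seeing the data). Leaving out each library gave 44 to 59 members, 12 to 20 of them on scaffold 10, with at least 40 of the 53 kept. TMM sizes gave 51. Members at least 1 above WT at 48 h were 13 to 25 in BIS14 with a library left out, also chosen after seeing the data.

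Members called with each library left out were 4 to 21 for BIS14 against BIS18 at 48 h, 9 to 17 for BIS3 against BIS18, 4 to 18 for BIS3 against BIS14, 0 to 9 and 7 to 17 at 18 h (BIS14 and BIS3 against BIS18), and 0 to 6 and 5 to 13 for the interactions. Fits of the compared groups alone called 3, 27 and 5 at 48 h, 0 for BIS14 at 18 h and 0 for its interaction. For these fits, and those with a library left out or kept in, shares called over all transcripts are not given. Their counts, in either direction, show only how far the calls shifted. With WT replicate 2 kept, 0, 1 and 1 were called at 48 h and 0 and 4 for the interactions. All libraries in one fit gave 4 for BIS3 against BIS14 at 48 h, and DESeq2 gave 3 for the interaction of BIS14. Counts for the times stayed within 1.5 times under every alternative. Of 57 named transcript results 28 were called under every alternative run and 0 reversed. The cause of these shifts was not tested.

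Same-numbered libraries of one time had correlations of -0.204 to 0.286 at 18 h and -0.202 to 0.158 at 48 h. Those of one strain at both times had -0.233 to 0.137 (14 pairs, median -0.005). Replicate numbers thus showed no steady pairing, but the labels do not say whether a culture was sampled at both times. The fits treated libraries of both times as separate, and the replicate block, shared across strains, does not model a culture sampled at both. With the replicate block 11, 16 and 15 members were called at 48 h, 3 and 8 at 18 h, 37, 39 and 34 for the times in BIS18, BIS14 and BIS3, and 1 and 12 for the interactions. Shares called over all transcripts are not given for the replicate block, so these counts serve only for comparison with those of the main fits. Members with few counts, such as 8534, were not tested between strains at 18 h. Between the times 8534 was tested and called higher at 48 h in BIS18, BIS14 and BIS3, by 3.27, 4.78 and 2.46. These changes start from means of 0.67, 0.26 and 0.85 CPM at 18 h, so their size is uncertain. Its difference of GB2 from WT at 18 h, 0.32, rests on 0.36 and 0.41 CPM and on the centring.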

Other observations

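WT replicate 2 at 48 h, which the main comparisons left out, lay below the other 5 WT libraries for 36 of the 53 members and above them for 10. For 8 members it was at or above the lowest GB2 library.

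The GB2 libraries at 48 h were not alike over the members. Replicate 1 was the lowest of the 3 for 31 members (58.5%, against 38.2% of all transcripts at this level) and replicate 3 the highest for 28 (52.8%, against 29.6%). Without replicate 3, 44 transcripts met the rule and 40 of the 53 were among them.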
